A study of Homo sapiens with 6 samples.

Results

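CTCF loci that carried a peak in control and in inflachromene-treated fibroblasts and none in senescent fibroblasts numbered 343 of 9720 CTCF loci on chromosomes 1 to 22 and X. Peaks of the 3 CTCF lists that overlapped by at least 1 bp were joined into 1 locus, and the 343 loci were chosen from the measured peaks themselves: a control peak, an ICM peak and no senescent peak. Of the 4369 loci with both a control and an ICM peak, 343 (7.85%) lacked a senescent one, a share that the choice itself fixes and that is given as a description. Another 4026 loci had a peak in all 3 lists and served as the main comparison. The remaining loci had peaks in ICM and senescent cells (1428), control and senescent cells (186), control cells (74), ICM cells (913) or senescent cells (2750). The number depends on the processing: joining peaks by 100 bp windows at their summits gave 577 such loci, and lists shortened to equal length gave 822 by total signal and 885 by highest signal.

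The cells were IMR90, a line of human lung fibroblasts that divides for a limited number of passages before it enters replicative senescence. Inflachromene (ICM) is a small molecule that binds the chromatin proteins HMGB1 and HMGB2, and the study asked whether it brings on a senescence-like state in cells of low passage. Binding of CTCF and of the cohesin subunit SMC1 was profiled by CUT&Tag, in which an antibody directs a transposase to cut and tag the DNA around the bound protein, in 1 library per antibody and condition (6 libraries in all). The CTCF libraries came from control cells named p21, from cells named p16 treated with ICM for 6 days, and from cells named p34. The study calls its proliferating controls DMSO cells, DMSO being the solvent, while the labels say control only. The SMC1 libraries came from control p16 cells, from ICM-treated p16 cells for which no number of days was given, and from p34 cells. The p34 cells were taken as the senescent ones because the series describes 1 high-passage senescent sample, and all libraries bear the same isolate prefix, I79. Control and ICM cells of the CTCF comparison differed in the number after p as well as in treatment, so these cannot be told apart. With 1 library a condition there was no replicate check, no test between conditions was possible, and each value below describes these libraries.

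CTCF is a zinc finger protein that binds a long DNA motif and halts the cohesin ring, of which SMC1 is a part, as it extrudes loops of chromatin. Pairs of bound CTCF sites thereby anchor loops and the borders of topological domains, and CTCF is also found at many promoters. Cells that become senescent rearrange their chromatin, and CTCF gathers into clusters in senescent fibroblasts.

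The 343 loci were a promoter-rich set. The control CTCF summit, the middle of the stretch of highest signal, lay within 1 kb of the annotated 5′ end of a gene at 256 of them, 74.6% (exact binomial 95% interval 69.7 to 79.2). This share was 41.0% over all loci with a control peak, 38.9% (37.4 to 40.4) at loci of all 3 lists, and 52.7% (40.8 to 64.4) at the 74 loci with a control peak alone. These intervals, like all below, cover counting error over loci and not the spread between libraries. The median distance from the control summit to a 5′ end was 240 bp (interval of the median 213 to 283) at the 343 loci and 3186.5 bp (2809 to 3640) at loci of all 3 lists. Among promoter loci, 5′ ends on both strands stood within 1 kb at 34.4% (28.6 to 40.5) of the chosen loci and at 25.2% (23.1 to 27.5) of those in all 3 lists.

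**Figure D1:**
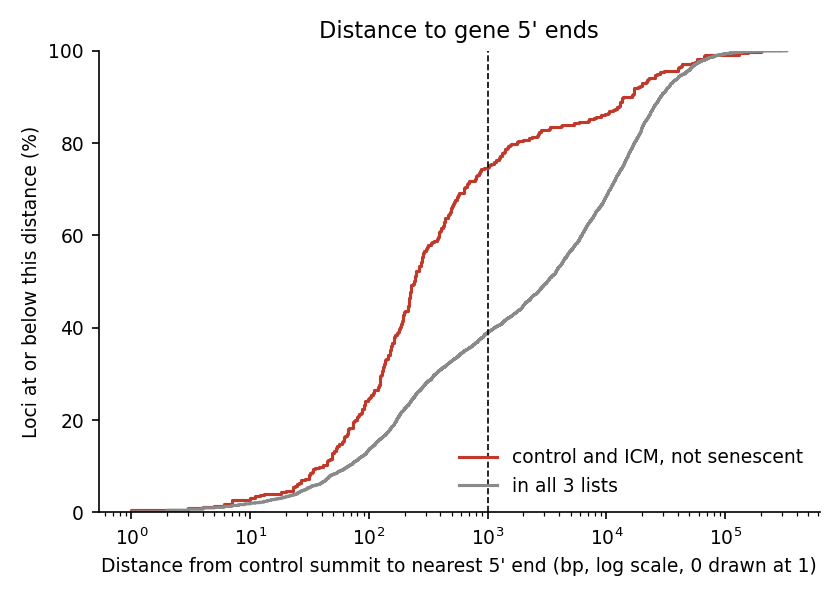
Cumulative percent of loci (vertical axis) against the distance in bp from the control CTCF summit to the nearest 5′ end (horizontal log axis) for the 343 loci of control and ICM and the 4026 loci of all 3 lists. At the dashed line at 1 kb the curves stand at 74.6% and 38.9%.

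Since the genome sequence under whole peaks was not used here, the DNA was read in the RefSeq promoter windows of GRCh38.p14, each 300 bases long with 250 bases before the 5′ end and 50 after. Of the 343 loci, 194 had a window whose 5′ end lay within 1 kb of the control summit, and in 93 the summit itself fell inside a window of a protein-coding gene. A CTCF core motif, spelled CCANNAGNNGGC and searched on both strands, stood in the windows of 4 of these 93. Those 4 are shown in full with the match in capitals as the loci whose summit and motif share a window: CEBPB (chr20:50190333-50190632, plus strand), SNX18 (chr5:54517509-54517808, plus strand), SAT1 (chrX:23782923-23783222, plus strand) and EIF4E (chr4:98929084-98929383, minus strand). CEBPB is a transcription factor of inflammatory genes, SNX18 a sorting nexin of endosomal membranes, SAT1 a polyamine acetyltransferase and EIF4E the cap-binding factor of translation.
CEBPB: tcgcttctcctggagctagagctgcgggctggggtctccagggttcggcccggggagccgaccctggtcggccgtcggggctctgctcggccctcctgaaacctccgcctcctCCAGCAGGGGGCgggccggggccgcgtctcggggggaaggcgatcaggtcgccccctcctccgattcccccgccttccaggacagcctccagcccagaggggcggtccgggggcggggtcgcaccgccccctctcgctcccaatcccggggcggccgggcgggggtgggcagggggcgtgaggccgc
SNX18: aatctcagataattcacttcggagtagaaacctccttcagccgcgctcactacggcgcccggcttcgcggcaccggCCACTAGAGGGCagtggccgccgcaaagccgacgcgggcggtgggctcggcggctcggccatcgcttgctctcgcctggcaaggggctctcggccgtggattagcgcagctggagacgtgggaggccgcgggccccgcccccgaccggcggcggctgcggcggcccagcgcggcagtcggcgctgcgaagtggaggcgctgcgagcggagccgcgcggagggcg
SAT1: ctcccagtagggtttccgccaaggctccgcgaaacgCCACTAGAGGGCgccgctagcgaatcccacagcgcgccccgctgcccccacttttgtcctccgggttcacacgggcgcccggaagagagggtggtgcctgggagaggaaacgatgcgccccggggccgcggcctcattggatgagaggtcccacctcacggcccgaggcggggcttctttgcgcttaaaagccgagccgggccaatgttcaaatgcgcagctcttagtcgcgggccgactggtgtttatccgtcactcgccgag
EIF4E: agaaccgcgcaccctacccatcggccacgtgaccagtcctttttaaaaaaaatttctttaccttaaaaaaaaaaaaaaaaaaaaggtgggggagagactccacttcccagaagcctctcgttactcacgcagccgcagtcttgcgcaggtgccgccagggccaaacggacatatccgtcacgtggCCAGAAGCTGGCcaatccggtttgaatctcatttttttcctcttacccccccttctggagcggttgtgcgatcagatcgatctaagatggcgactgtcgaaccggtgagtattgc

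The other 89 windows held no such match, and 4 of them, chosen after their values were seen, show this more frequent case. Capitals here mark CCAAT boxes (CCAAT or its complement ATTGG) and GC boxes (GGGCGG or its complement CCGCCC). They belong to BRD2 (chr6:32968344-32968643, plus strand), GRK5 (chr10:119207321-119207620, plus strand), PPM1D (chr17:60599943-60600242, plus strand) and TOP2A (chr17:40417847-40418146, minus strand). BRD2 is a bromodomain reader of acetylated histones, GRK5 a kinase of G protein-coupled receptors, PPM1D a phosphatase that dampens p53 signalling and TOP2A the topoisomerase of dividing cells.
BRD2: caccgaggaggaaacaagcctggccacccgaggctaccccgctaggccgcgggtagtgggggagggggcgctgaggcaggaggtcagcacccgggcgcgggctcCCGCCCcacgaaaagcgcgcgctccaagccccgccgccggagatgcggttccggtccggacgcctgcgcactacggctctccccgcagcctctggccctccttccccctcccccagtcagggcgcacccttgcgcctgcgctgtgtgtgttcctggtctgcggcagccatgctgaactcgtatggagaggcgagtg
GRK5: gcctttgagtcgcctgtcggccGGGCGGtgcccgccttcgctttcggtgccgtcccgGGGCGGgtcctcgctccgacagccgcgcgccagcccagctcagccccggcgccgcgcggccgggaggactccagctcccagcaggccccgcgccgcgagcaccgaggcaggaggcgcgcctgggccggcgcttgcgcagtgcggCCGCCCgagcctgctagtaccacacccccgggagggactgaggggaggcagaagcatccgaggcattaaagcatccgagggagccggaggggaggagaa
PPM1D: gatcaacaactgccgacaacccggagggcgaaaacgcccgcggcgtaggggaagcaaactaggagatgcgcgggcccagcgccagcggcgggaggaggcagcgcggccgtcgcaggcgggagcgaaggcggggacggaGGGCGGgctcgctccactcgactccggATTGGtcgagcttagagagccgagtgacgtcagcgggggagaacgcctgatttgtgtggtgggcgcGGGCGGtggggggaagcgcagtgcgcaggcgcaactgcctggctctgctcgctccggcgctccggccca
TOP2A: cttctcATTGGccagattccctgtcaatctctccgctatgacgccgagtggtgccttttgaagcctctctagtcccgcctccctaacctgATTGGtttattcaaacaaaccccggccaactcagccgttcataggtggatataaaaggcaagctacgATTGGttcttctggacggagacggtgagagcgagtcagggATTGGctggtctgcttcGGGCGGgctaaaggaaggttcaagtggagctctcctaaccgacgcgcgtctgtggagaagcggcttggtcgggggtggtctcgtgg

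The BRD2 window held 1 GC box, that of GRK5 held 3, that of PPM1D held 2 beside 1 CCAAT box, and that of TOP2A held 4 CCAAT boxes and 1 GC box. A match describes letters and not a bound site, and the lack of one covers these 300 bases alone. The study states that it filtered its CTCF peaks for a consensus motif under the peak, and whole peaks were not searched here.

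Over the whole set, the CTCF core motif was found in 6 of the 194 promoter windows, 3.09% (1.14 to 6.61), beside 2.41% of all 34961 promoter windows. Promoter loci of all 3 lists held it in 90 of 1167 windows, 7.71% (6.25 to 9.39), an interval that overlaps that of the 343 loci slightly. The share at the chosen loci moved with the rule, to 6.18% with peaks joined by summit windows, 5.24% and 4.67% with lists of equal length by total and by highest signal, and 1.86% in the upper 3 quartiles of each list. The loci of all 3 lists stood at 8.75%, 8.61%, 9.88% and 8.62% in these settings. With the third letter left free (CCNNNAGNNGGC) the shares were 16.5% (11.6 to 22.5), 10.6% and 26.6% (24.1 to 29.3), so the interval of the chosen loci lay below that of the loci in all 3 lists and above the value for all promoters. GC boxes stood in 74.7% (68.0 to 80.7) of the windows of the chosen loci, 73.8% (71.2 to 76.3) of those in all 3 lists and 45.0% of all promoters. CCAAT boxes stood in 37.6%, 33.6% and 34.6% and the ETS motif CCGGAAG in 21.6%, 16.8% and 10.3%, in the same order. The chosen loci and those of all 3 lists thus shared a base composition apart from promoters at large, with median GC contents of 68.2% and 67.0% against 58.7%, and medians of 29 and 27 CpG dinucleotides against 14.

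**Figure D2:**
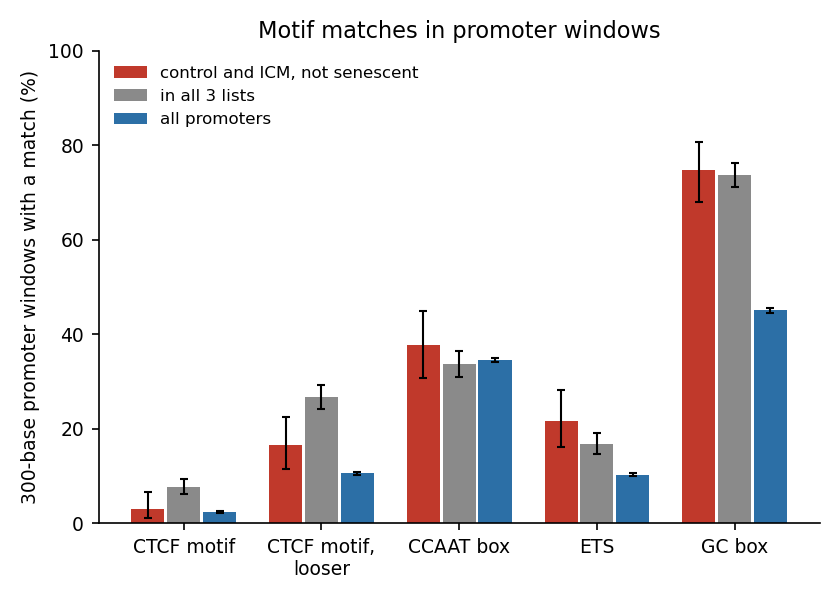
Percent of 300-base promoter windows (vertical axis) with a match to each motif for the 194 windows of control and ICM loci, the 1167 windows of loci in all 3 lists and all 34961 windows, with lines on the bars for exact 95% binomial intervals. The CTCF core motif stands at 3.09%, 7.71% and 2.41% and the GC box at 74.7%, 73.8% and 45.0%.

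The signal values of the lists share no common scale, so each peak was placed by its percentile within its own list, where 100 is the peak of highest total signal. The 343 loci ranked lower than the loci of all 3 lists. Their median percentile was 22.4 (interval of the median 19.2 to 25.8) in the control list and 42.9 (38.7 to 46.3) in the ICM list, against 55.9 and 68.9 at loci of all 3 lists. By the highest signal in the peak the medians were 13.7 and 20.7, against 55.9 and 68.9. From the lowest to the highest quartile of the control list by total signal they numbered 190, 103, 42 and 8. These ranks belong to the lists that chose the loci and are given as a description. How low they were depended on the rule: loci joined by summit windows had a median control percentile of 48.9, against 52.8 at loci of all 3 lists joined in the same way, and those from lists of equal length by highest signal 47.8, against 63.97. The loci were not narrow: control peaks had a median width of 1922 bp and ICM peaks 2149 bp, beside 1786.5 and 2036 bp at loci of all 3 lists. The intervals of the ICM medians overlapped (2036 to 2256 and 2002 to 2067 bp). Senescent peaks were narrower throughout, with a median of 1324.5 bp at loci of all 3 lists. Over whole lists the medians were 1120 bp in senescent, 1797 bp in control and 1960.5 bp in ICM cells. The signal of the chosen loci was flatter than at loci of all 3 lists. Its highest value stood at a median of 2.97 times the mean signal of the peak in the control list and 3.15 times in the ICM list, beside 3.51 and 3.98 times. Loci with a control peak alone had 2.95 times at a median control percentile of 12.5, and those of control and senescent cells 3.39 times at 15.1. In the ICM list, loci with an ICM peak alone had 3.22 times at 18.6, and those of ICM and senescent cells 3.72 times at 24.2.

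**Figure D3:**
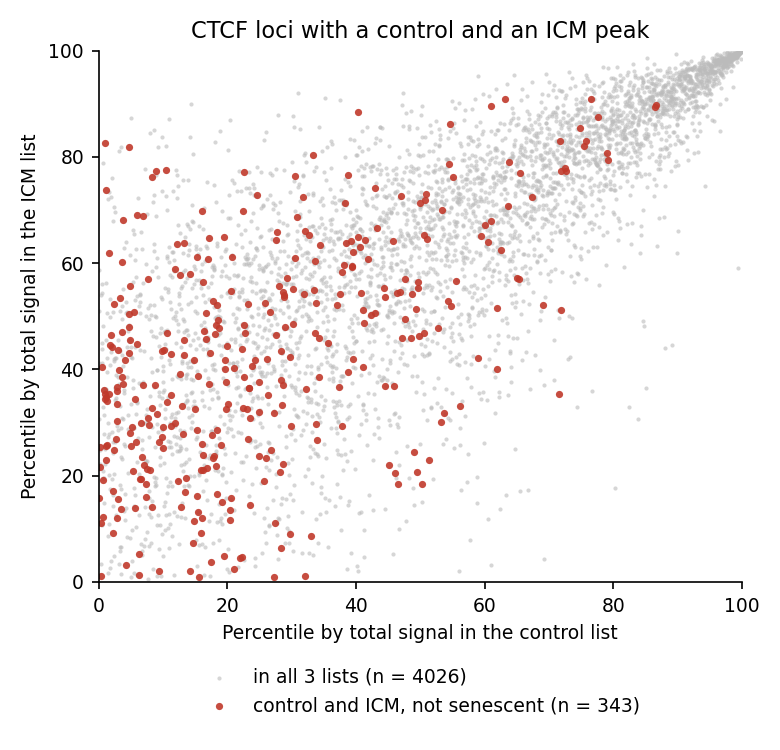
Percentile by total signal in the control list (horizontal axis) and in the ICM list (vertical axis) for each CTCF locus with both peaks, without a senescent peak (343 points) or with one (4026 points). The chosen loci gather at the left, with a median of 22.4 in the control list, and spread widely in the ICM list around a median of 42.9.

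Each of the 343 loci had exactly 1 control and 1 ICM peak. Their ranks in both lists went together less closely than at loci of all 3 lists, by an amount that depended on the measure. By total signal the Spearman rank correlation across loci was 0.470 at the 343 loci and 0.819 at the 4026 loci of all 3 lists. By highest signal it was 0.696 and 0.855. This is a description in which the points of a list share 1 library and the chosen loci span fewer ranks. The ICM percentile was above the control percentile at 276 loci, 80.5%, against 77.0% at loci of all 3 lists. The summits of both peaks lay a median of 73 bp (53 to 83) apart, compared with 15 bp (13 to 17). They were within 100 bp of each other at 61.8% (56.4 to 67.0) and 83.9% (82.7 to 85.0) of loci.

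Promoter position and a low rank each went with the lack of a senescent peak. Of loci with control and ICM peaks, 14.1% (12.5 to 15.7) at promoters and 3.42% (2.75 to 4.20) elsewhere had none in senescent cells. In the lowest quartile of the control list the shares were 37.8% (32.8 to 43.1) at promoters and 9.09% (6.92 to 11.7) elsewhere. In the second quartile they were 20.5% and 2.78%, and in the third 6.97% and 1.45%. In the highest quartile, where 5 of 596 promoter loci and 3 of 570 other loci lacked a senescent peak, the shares of 0.839% (0.273 to 1.95) and 0.526% (0.109 to 1.53) overlapped. Rank came from lists that the rule used, while position was not used by it. The quartiles went by total signal in the control list alone. By quartile of highest signal, the shares over all positions were 26.2%, 6.85%, 1.39% and 0.259%. At loci of all 3 lists, promoter peaks had a higher median percentile than other peaks in the control list (65.5 and 50.4). In the senescent list it was lower (70.0 and 77.0, and 55.9 and 74.7 by highest signal). Whether this bears on the gap inside a quartile was not tested.

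**Figure D4:**
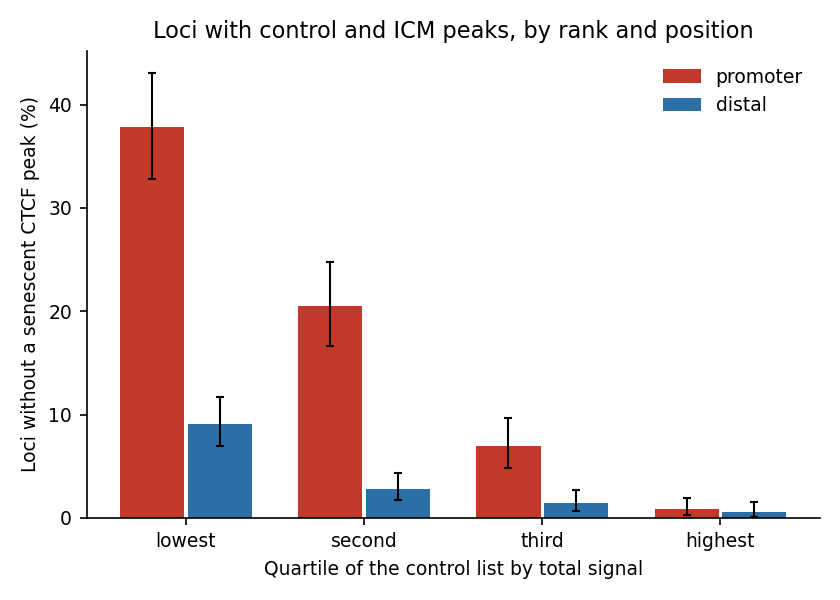
Percent of CTCF loci with control and ICM peaks that lacked a senescent peak (vertical axis), by quartile of the control list (horizontal axis), at promoters and elsewhere (distal), with exact 95% binomial intervals. In the lowest quartile the bars stand at 37.8% and 9.09%, and in the highest both are below 1%.

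The 8 loci of the highest control quartile were the strongest of the set by total signal in the control list. The first was BRD2 (chr6:32967201-32973316), the widest locus of all, with a control peak of 5501 bp and an ICM peak of 6116 bp. Its percentiles by total signal were 86.6 in the control and 89.8 in the ICM list, while by highest signal they were 10.6 and 12.4, so this was a broad and low peak. ADAMTS1, a secreted metalloprotease that cleaves matrix proteoglycans, had a locus 1122 bp from its 5′ end (chr21:26842674-26847247) at percentiles of 86.5 and 89.3. An intergenic locus on the X chromosome (chrX:115732204-115733478), 139251 bp from the nearest protein-coding 5′ end, that of PLS3, stood at 79.1 and 79.4. Unlike BRD2 it was narrow, 1275 and 1136 bp, and high by its peak signal as well, with percentiles of 83.1 and 87.4. PPM1D (chr17:60599292-60602950) followed at 78.99 and 80.7, TENT5A, a poly(A) polymerase (chr6:81751189-81754656), at 77.7 and 87.5, and GRK5 (chr10:119206141-119210373) at 76.6 and 90.9. The other 2 lay at ACTL10 and NECAB3 (chr20:33666116-33668885), at 75.8 and 83.0, and at the CEBPB promoter (chr20:50188263-50192483), at 75.5 and 82.1.

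Just below them in mean rank came ACTB, which encodes beta-actin (chr7:5527568-5531467), with percentiles of 74.8 in control and 85.5 in ICM. The locus between the ribosomal protein gene RPL7 and the retinol dehydrogenase gene RDH10 (chr8:73293228-73296225) stood at 71.8 and 83.0. RUNX1, a transcription factor of blood and mesenchymal cells (chr21:34887828-34891754), and SPIN1, a reader of methylated histones (chr9:88387450-88389560), ranked higher in ICM than in control, at 63.3 and 90.9 and at 61.0 and 89.6. SPIN1 was also sharp, with percentiles by highest signal of 86.4 and 97.7. None of the control peaks of these 4 reached the highest quartile.

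At the other end of width stood MPP7, a membrane scaffold gene, with a control peak of 698 bp and an ICM peak of 891 bp. A locus inside NET1 had 759 and 1574 bp, and one at the pseudogene RPL21P25 had 867 and 925 bp. Besides BRD2, the widest control peaks were an intergenic one 39899 bp from the 5′ end of SYNPO, 4647 bp, and that of the histone gene H2AC21, 4444 bp.

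The nearest senescent CTCF peak lay a median of 57849 bp (interval of the median 45613 to 72911) from the 343 loci. It was within 1 kb of 7 loci, within 10 kb of 60 (17.5%, 13.6 to 21.9) and within 100 kb of 211 (61.5%, 56.1 to 66.7). Loci with a control peak alone had a median of 38868.5 bp, with 17.6% (9.70 to 28.2) within 10 kb and 75.7% (64.3 to 84.9) within 100 kb. Those with an ICM peak alone had 47493 bp, 22.5% (19.8 to 25.3) and 65.8% (62.6 to 68.9). Just inside the rule were ORAI1, the pore of store-operated calcium channels, with a senescent peak 56 bp away, the kinase gene SGK1 with one 233 bp away, and MORF4L2 with one 368 bp away. Just outside it were loci near MTAP, MYLK4 and SCAF8, whose overlap with a senescent peak was as short as 410, 414 and 434 bp. The farthest locus from a senescent peak, 3842043 bp, lay inside MIR17HG, the host gene of the miR-17-92 microRNA cluster (chr13:91348186-91349603), and ranked at 3.74 in control and 68.2 in ICM. The X locus near PLS3 was 3748842 bp away, and the promoter of MAT2B, a subunit of methionine adenosyltransferase (chr5:163505193-163507205), 2995949 bp.

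The loci were unevenly spread over chromosomes. On chromosome 4, 23 of 88 loci with control and ICM peaks lacked a senescent one, 26.1% (17.3 to 36.6), and on the X chromosome 13 of 60, 21.7% (12.1 to 34.2). Over all chromosomes the share was 7.85% (7.07 to 8.69). Chromosome 18 held 4 of 24, 16.7% (4.74 to 37.4), and chromosome 13 held 9 of 57, 15.8% (7.48 to 27.9). Chromosome 5 held 28 of 194, 14.4% (9.81 to 20.2), while chromosome 11 held 13 of 334, 3.89% (2.09 to 6.56), and chromosome 14 held 5 of 144, 3.47% (1.14 to 7.92). These chromosomes were singled out after their values were seen. On chromosome 4 the loci included the promoters of CAMK2D, a calcium-dependent kinase (percentiles 61.9 in control and 51.5 in ICM), PAICS, a purine synthesis enzyme (39.5 and 62.1), MAD2L1, a spindle checkpoint protein (18.5 and 49.2), and EIF4E (11.9 and 58.9). The senescent list was the longest of the 3 CTCF lists, with 8578 peaks as deposited beside 4674 in control and 6729 in ICM.

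Of the 343 loci, 30 lay within 100 kb of another, in 14 runs, and no such count over other loci is given to set beside it. The longest runs held 3 loci each. One, on chromosome 19 from 40613381 to 40779484, took in a locus inside LTBP4, a latent TGF-beta binding protein, and the promoters of COQ8B and RAB4B. The other, on the X chromosome from 131703494 to 131753958, lay wholly inside FIRRE, a long noncoding RNA gene whose repeats carry many CTCF sites. Its loci stood at control percentiles of 3.15, 65.1 and 59.4 and ICM percentiles of 39.97, 57.3 and 65.1 along the chromosome. The other 12 runs were pairs, of which 3 are named here after their values were seen. A pair at the histone variant gene H3-3B and its neighbour UNK spanned 8302 bp (chr17:75778353-75786654). A pair of promoters in the gamma protocadherin cluster, where many promoters bind CTCF, was 35046 bp across (chr5:141387200-141422245). A histone pair spanned 97540 bp on chromosome 1 (chr1:149791991-149889530), from a locus inside H2BC18 to H2AC21.

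SMC1 was read in its own libraries, which the rule did not use. An SMC1 peak overlapped 273 of the 343 loci in control cells, 79.6% (74.9 to 83.7), beside 55.7% of all 9720 CTCF loci. In ICM cells the number was 258, 75.2% (70.3 to 79.7), beside 60.3%. In senescent cells it was 212, 61.8% (56.4 to 67.0), beside 52.1%. At loci of all 3 CTCF lists the shares were 77.2%, 77.8% and 71.4% (70.0 to 72.8). In the senescent SMC1 list the interval of the chosen loci lay below that of the loci in all 3 lists, and in the control list the intervals overlapped. The senescent gap depended on how peaks were joined: with summit windows the shares were 71.1% at the chosen loci and 69.1% at those of all 3 lists, whereas in the upper 3 quartiles of each list they were 67.8% and 76.7%. The senescent share of the chosen loci was lower than the control share, a difference of -17.8 points, with a peak in control alone at 73 loci and in senescent cells alone at 12. The difference was -5.76 points at loci of all 3 lists and -3.57 points over all CTCF loci. A lower senescent share was not particular to the chosen loci. The control and senescent shares were 58.1% and 44.6% at loci with a control peak alone and 70.9% and 58.9% with an ICM peak alone. At loci of control and senescent cells they were 56.5% and 42.5%. The order was reversed at loci of ICM and senescent cells (45.2% and 46.5%) and of senescent cells alone (21.5% and 24.1%). The 73 loci with an SMC1 peak in control and none in senescence made up 21.3% (17.1 to 26.0) of the chosen loci, beside 12.5% of all CTCF loci, which start from a lower control share. Of the loci with control SMC1, 26.7% (21.6 to 32.4) of the chosen ones had none in senescent cells, compared with 22.4% (21.3 to 23.5) of all CTCF loci and 16.3% (15.004 to 17.6) of those in all 3 lists. The senescent SMC1 list was the shortest of the 3 (12928 peaks as deposited, against 14884 in control and 17810 in ICM), and with SMC1 lists of equal length the difference was -14.9 points. It was -8.84 points for the loci joined by summit windows, -8.81 points for those from CTCF lists of equal length by highest signal, and -4.96 points where SMC1 and CTCF summit windows of 100 bp had to overlap. At loci of all 3 lists these settings gave -6.31, -5.71 and -7.53 points, so under the last of them the chosen loci had the smaller difference. In that last setting the SMC1 shares of the chosen loci were 41.7% (36.4 to 47.1) in control, 40.8% in ICM and 36.7% in senescent cells. Loci of all 3 lists had higher shares in each condition, 62.9% (61.4 to 64.4), 63.2% and 55.3%.

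**Figure D5:**
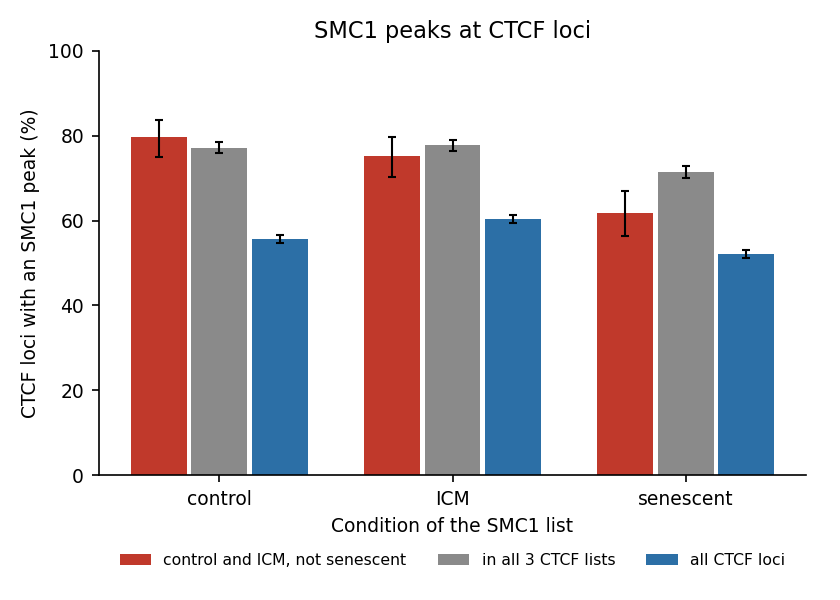
Percent of CTCF loci overlapped by an SMC1 peak (vertical axis) in the control, ICM and senescent SMC1 lists (horizontal axis) for the 343 control and ICM loci, the 4026 loci of all 3 CTCF lists and all 9720 loci, with exact 95% binomial intervals. The chosen loci stand at 79.6%, 75.2% and 61.8%.

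The lower senescent share held at promoters and elsewhere. At the 256 promoter loci the SMC1 shares were 84.4% (79.3 to 88.6) in control, 78.1% (72.5 to 83.0) in ICM and 65.6% (59.5 to 71.4) in senescent cells. At the other 87 loci they were 65.5% (54.6 to 75.4), 66.7% (55.7 to 76.4) and 50.6% (39.6 to 61.5), with wide intervals that overlap. From control to senescence the differences were -18.8 and -14.9 points, beside -11.0 and -2.44 points at promoter and other loci of all 3 lists. In the lowest control quartile the difference was -18.9 points at 190 chosen loci and -4.92 points at 772 loci of all 3 lists. There the control shares differed, 80% (73.6 to 85.4) and 57.6% (54.1 to 61.2), and of the loci with control SMC1 the parts without senescent SMC1 had intervals that overlap, 27.0% (20.1 to 34.8) and 27.6% (23.5 to 32.0). Promoters of that quartile had SMC1 at 86.7% (79.7 to 91.9), 78.5% and 65.2% (56.5 to 73.2) in the chosen loci and at 69.4% (62.8 to 75.4), 66.7% and 58.6% (51.8 to 65.1) in those of all 3 lists. Among promoters of that quartile, then, the interval of the chosen loci lay above that of the others in control cells, and the intervals overlapped in senescent cells. The quartile goes by total signal alone. Over all its loci, promoter or not, control peaks had a median width of 1814 bp at the chosen loci and 1472 bp at those of all 3 lists. Their median percentiles by highest signal were 9.77 and 27.4. Whether this bears on the SMC1 shares was not tested.

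Locus by locus, SMC1 peaks were present in all 3 conditions at 197 of the 343 loci (57.4%) and in none at 51 (14.9%). They were found in control and ICM cells at 49 (14.3%, 10.8 to 18.4), against 8.84% (7.98 to 9.76) of loci in all 3 CTCF lists. Control cells alone had one at 24 loci, ICM cells alone at 7 and senescent cells alone at 7. Control and senescent cells shared one at 3 loci, and ICM and senescent cells at 5. At the 197 loci with SMC1 throughout, the median percentile of the SMC1 peak by total signal was 86.9 in control, 80.9 in ICM and 74.3 in senescent cells, and by highest signal 73.7, 63.6 and 49.7. Loci of all 3 CTCF lists with SMC1 throughout had medians of 78.9, 83.3 and 78.0 by total signal.

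Of the strongest loci with SMC1 in every condition, BRD2 had SMC1 percentiles of 95.8 in control, 93.1 in ICM and 58.7 in senescent cells. GRK5 stood at 88.3, 65.4 and 20.5. CEBPB stood at 94.7, 93.0 and 57.3. The senescent value was the lowest at each of these 3 genes. The ACTL10 and NECAB3 locus had 92.4, 94.2 and 48.3, and TENT5A, where the values lay close together, 98.7, 99.7 and 98.6. PPM1D alone of the 6 had its lowest value in ICM, with 85.8, 68.5 and 78.1. TENT5A thus had a strong SMC1 peak in senescent cells while it had no CTCF peak there within 1310587 bp.

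The 6 loci of highest CTCF rank led the 49 with SMC1 in control and ICM cells and none in senescent cells. ADAMTS1 had SMC1 percentiles of 88.6 in control and 52.0 in ICM, and MORF4L2, a subunit gene of histone acetyltransferase complexes, 89.6 and 75.9. The X locus near PLS3 had 46.7 and 16.02. The promoter of H2AC21 had 64.2 and 51.0. GCLC, the catalytic subunit of the first enzyme of glutathione synthesis, went the other way with 33.1 and 83.5. A locus 11470 bp from CHAC1, whose product degrades glutathione, had 70.6 and 22.4. At 5 of these 6 the control percentile was the higher, GCLC being the exception.

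The opposite pattern, SMC1 in senescent cells alone, was found at ACTB, with a senescent SMC1 percentile of 32.1, and at 6 more loci. Among these were the intergenic locus near SYNPO (46.7), the promoters of ZNF616, CPSF1 and FAM217B, and a locus on chromosome 13 (chr13:21297091-21299021). They were named after their values were seen. NPY1R, a neuropeptide Y receptor gene, AADAT and PTPN11, a phosphatase of growth factor signalling, were among the loci without SMC1 in any condition.

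Lists of genes tied to senescence, chromatin and the fibroblast were examined for loci at their promoters. Of the 19630 protein-coding genes whose 5′ end could be placed, 272 (1.39%) had one of the 343 loci within 1 kb. Most lists held 1 or none. CTCF and cohesin genes held 1 of 16, NIPBL, which loads cohesin onto DNA (chr5:36875081-36877677, percentiles 29.3 in control and 57.2 in ICM), and no SMC1 list had a peak there. The secretory phenotype list, inflammatory factors that senescent cells release, held 1 of 27, IL6 (chr7:22725437-22728097). Its CTCF peak ranked at 53.4 and 70.1 by total signal but 6.24 and 10.4 by highest signal, and SMC1 stood there in all 3 conditions at percentiles of 92.4, 93.9 and 86.7.

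Genes of p53 and RB arrest held 2 of 18. CDK6, a kinase that phosphorylates RB (chr7:92831476-92834608), ranked at 22.6 in control and 77.2 in ICM, and SMC1 was present throughout at 95.6, 95.5 and 89.7. CDKN2C, an inhibitor of that kinase (chr1:50967770-50969192), ranked at 49.1 and 24.4, and had SMC1 in control (49.7) and ICM (20.1) and none in senescent cells. The cell cycle and replication list held 1 of 26, TOP2A (chr17:40417071-40418750), at 2.79 and 36.0, with SMC1 throughout at 65.7, 84.1 and 56.5.

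Clustered protocadherins held 2 of 53, PCDHGB4 and PCDHGA11. PCDHGB4 ranked at 24.9 in control and 37.7 in ICM, and PCDHGA11 at 26.4 and 35.2. Neither had an SMC1 peak in any condition, and senescent CTCF peaks lay 3282 and 2360 bp away. No protocadherin promoter was among the loci of all 3 lists. The actin and mechanosensing list held 1 of 20, ACTB, described above. Imprinted genes, extracellular matrix genes, transcription factors of the lung mesenchyme, lamin and heterochromatin genes, HMG genes, growth factor receptors, immediate early genes and the HOX clusters held none at their promoters. LMNB1, a lamin gene, carried 1 locus inside the gene, 1313 bp from its 5′ end (chr5:126776376-126779043), at 16.1 in control and 26.0 in ICM, with SMC1 in control and ICM cells and none in senescent cells. With so few genes a list, these counts are too small to tell a list from the 1.39% of all genes.

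Other promoters among the 343, picked after their values were seen because their genes are known in stress and signalling, varied as widely in rank. VIM, which encodes vimentin (chr10:17226300-17230871), ranked at 40.4 in control and 88.5 in ICM, and NR3C1, the glucocorticoid receptor (chr5:143402630-143405712), at 50.7 and 72.0. SGK1 ranked at 49.9 and 71.3, and EDN1, the endothelin-1 gene (chr6:12288640-12290797), at 41.8 and 60.8. The heat shock gene HSPA1B (chr6:31826560-31828469) stood at 34.3 and 38.6. All 5 had an SMC1 peak in each condition. SAT1 (chrX:23782594-23783538), one of the 4 with the core motif, had an SMC1 peak in control cells alone, and RICTOR, a subunit of mTOR complex 2 (chr5:39073194-39075501), in control and ICM cells. NFKBIA, the inhibitor of NF-kappa-B, was at the very bottom of the control list and ranked at 15.8 in the ICM list, and carried SMC1 in every condition.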

How the data were processed

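The deposited files were 6 CUT&Tag peak lists, 1 per library, from IMR90 cells. The authors aligned reads to GRCh38 (hg38) with Bowtie2 2.3.4.1, used Picard 2.20.7 and deepTools, scaled libraries by their E. coli spike-in, and called peaks per library with SEACR 1.3 in stringent mode at the top 1%. Each deposited line gives the position, the total signal and the highest signal of a peak, and the signal depends on calibration, so values were turned into percentiles within a list. The depth of each library cannot be read from the lists and is unknown here, and intervals cover counting error over loci only. In each list 1 mitochondrial peak was left out. Between 27 and 78 peaks a list passed the ends of GRCh37 chromosomes, as hg38 positions would.

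Loci, overlaps, exact Clopper-Pearson intervals and medians with order-statistic binomial intervals (95%) were computed in Python 3.11.15 with pandas 2.3.3, numpy 2.4.6 and scipy 1.17.1. The code was tested on simulated lists. The 5′ ends (54823, of 47057 genes) came from RefSeq GRCh38.p14, with strands from GENCODE where RefSeq windows gave none. Exon and intron positions on this build were not used here. The loci and gene lists were chosen with earlier results of these data known. Named loci were the 12 of highest mean percentile over the control and ICM lists, the 6 highest with SMC1 in all conditions and the 6 highest with SMC1 in control and ICM alone, the 3 widest and 3 narrowest control peaks, the 3 nearest to and 3 farthest from a senescent peak, all at promoters of listed genes, and the 4 runs with most loci. Since 12 runs tied for the third place, the 2 longest were named by the rule and 3 tied pairs by choice. Others are named as chosen later. Alternatives changed how peaks were joined, the list lengths, the promoter distance, the SMC1 overlap and the motif.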

Additional observations from a re-analysis of the deposited data

How the results depend on the processing

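Of 98 recomputed values, 63 moved by less than their interval or 1.5 times, and 35 moved further. Values at loci of all 3 lists were recomputed under the same alternatives, which was added after seeing the data. The chosen loci had the higher promoter share and wider peaks, and the lower median ranks and motif share, under each alternative run for these, though several intervals overlapped. With summit windows this held for ranks in control (42.9 to 53.3 and 51.2 to 54.5) and ICM (62.2 to 69.6 and 65.1 to 67.5). It also held there for the motif share (3.64 to 9.71 and 6.83 to 11.0). ICM widths overlapped in the main setting (2036 to 2256 and 2002 to 2067 bp) and with gaps up to 1 kb joined (2033 to 2256 and 2007 to 2070 bp). They also overlapped with lists of equal length by total signal (2104 to 2266 and 2059 to 2131 bp) and by highest signal (1965 to 2078 and 1940 to 2013 bp). Control widths overlapped with lists of equal length by total (1825 to 1926 and 1778 to 1840 bp) and by highest signal (1729 to 1837 and 1695 to 1760 bp). The lower senescent SMC1 share turned with summit windows (71.1% against 69.1%), and the larger SMC1 difference turned where SMC1 and CTCF summit windows had to overlap (-4.96 against -7.53 points). Joining peaks by 100 bp summit windows gave 577 loci, of which 209 overlapped the 343, with 60.3% at promoters, median percentiles of 48.9 in control and 65.2 in ICM, SMC1 at 71.1% in senescent cells and a difference from control of -8.84 points. CTCF lists of equal length by total signal (4673 peaks) gave 822 loci sharing 237 of the 343, 568 promoter genes, 65.2% at promoters and percentiles of 35.3 and 56.5. Equal length by highest signal gave 885 loci sharing 119, 564 promoter genes, 59.5% at promoters, percentiles of 47.8 and 66.1, widths of 1787 and 2019 bp and an SMC1 difference of -8.81 points. The upper 3 quartiles of each list gave 67.8% SMC1 in senescent cells, percentiles of 43.96 and 59.2, and widths of 2050.5 and 2331.5 bp, and shared 135 of the 343.

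SMC1 and CTCF summit windows that overlap gave shares of 41.7%, 40.8% and 36.7% in control, ICM and senescent cells and a difference of -4.96 points. The shares at loci of all 3 lists were then 62.9%, 63.2% and 55.3%. SMC1 lists of equal length gave 67.1% in ICM. The promoter share was 66.2% within 500 bp, 81.3% within 2500 bp and 67.9% with protein-coding genes alone. The motif with the third letter free gave 16.5%, and ranks by highest signal gave 13.7 and 20.7. The causes were not tested, beyond the list that each alternative shortens. Added after seeing the data, loci without a senescent peak within 10 kb (283) and those in the upper 3 quartiles of the control list gave differences of -18.0 and -16.3 points. No paired analysis was possible because each group holds 1 library and no test was made. Which loci count as lacking a senescent peak thus depends on list length and on how peaks are joined, and with 1 library a condition the spread between cultures is unknown.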
